A study of Mus musculus with 6 samples.

Results

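Inherited neuropathies of the Charcot-Marie-Tooth type and their relatives, the distal motor and hereditary sensory neuropathies, can arise from mutations in many genes, and PLEKHG5 is one of them. The mouse counterparts of 46 such genes that encode no structural protein of the myelin sheath were followed in the sciatic nerve of mice without Plekhg5. They were taken by gene name, as genes known from human disease. All 46 were found among the 39174 genes of the expression tables, and all 46 reached the level required for testing, as 21285 genes did. That level was a mean of 0.1 FPKM or more in at least 1 genotype, where FPKM counts the fragments assigned to a gene relative to its length and to the size of the library.

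RNA was sequenced from whole sciatic nerves of 3 wild-type mice, numbered 2, 4 and 5, and of 3 Plekhg5-/- mice, numbered 2, 3 and 5, here called Plekhg5-deficient or mutant. Values are given in that order of the numbers throughout. The labels call all animals adult and the study's text gives their age as a year. Sex and genetic background are not labelled, and every library carried the Y-linked transcript Ddx3y, at 4.76 to 6.56 FPKM, with at most 0.0193 FPKM of Xist. Nerves went straight into RNA extraction, so a value is a sum over Schwann cells, axons, connective tissue, vessels, blood and any adhering tissue, and fewer cells of a type cannot be told apart from less RNA per cell. Values below are FPKM divided by a scaling factor per library (0.745 to 1.12). Log2 fold changes are Plekhg5-deficient minus wild-type on the log2(FPKM + 1) scale, on which changes of weakly expressed genes come out smaller than they are, and adjusted p-values come from limma with Benjamini-Hochberg adjustment over all 21285 genes. The tables hold no read counts and the read depth is unknown, but for these 46 genes the 95% intervals that Cufflinks gave had a median half-width of 9.29% of the value, from 3.70% for Ndrg1 to 64.5% for Hspb3.

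Plekhg5 itself, a guanine nucleotide exchange factor on chromosome 4 (152072498 to 152115400, GRCm38), had 3.65, 4.13 and 5.26 FPKM in the wild type and 0.141, 0.140 and 0.0521 FPKM in the mutants. The groups did not overlap, and the log2 fold change was -2.26 (SE 0.18, adjusted p = 0.0380 from limma). Schwann cell markers were present in every library, with all 8 detected and a summed level of 8209 to 15917 FPKM. Both libraries numbered 5 stood apart from the other 4. Wild-type nerve 5 carried 188 FPKM of lymphocyte markers against 3.49 to 8.43 FPKM in the others, and Plekhg5-deficient nerve 5 carried 229904 FPKM of erythroid markers against 3975 to 24290 FPKM. Plekhg5-deficient nerve 5 also had the most skeletal muscle RNA (summed markers 39963 FPKM, 231 to 15808 FPKM elsewhere) and the least of the neuronal markers (7.61 FPKM, 24.5 to 301 FPKM elsewhere).

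These genes act at several places along the Schwann cell and axon unit. Aminoacyl-tRNA synthetases load amino acids onto tRNA, small heat shock proteins and their partners keep other proteins soluble, and a group of lipid phosphatases and endosomal proteins sorts membrane in Schwann cells. Kinesin and dynein carry cargo along axons that can be a metre long in humans, and further members shape the endoplasmic reticulum, build sphingolipids or serve mitochondria. Many are made in every cell, yet their loss or alteration shows first in peripheral nerve.

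Upstream sequence was examined because parts of the list are known to answer as groups to transcription factors of the stress response. For 38 of the 46 genes, RefSeq (GRCm38.p6) gave a window that includes the 250 bases before a gene start. No window was used for Mars, Hint1, Sh3tc2, Ndrg1, Gnb4, Hars, Kif5a and Gdap1. A heat shock element, searched on both strands as GAANNTTC or TTCNNGAA, the letters that heat shock factors bind, lay in 5 members and in 12.8% of all 32851 windows. Of the 8 chaperone and protein quality control members, 4 held it (Vcp, Hspb1, Hspb3 and Cct5), as did Fgd4. A C/EBP-ATF response element, searched on both strands as TGATGNAA, the type of site that the transcription factor Atf4 uses, lay in Gars, Aars and Prps1 and in 3.45% of all windows. The palindrome CGCATGCG, a core site of the nuclear respiratory factor Nrf1, lay in Mtmr2, Dync1h1 and Aifm1 and in 1.55% of all windows. A member was counted if any of its windows held the letters, and several members had multiple windows. The percentages count single windows, so they are not the same measure as the counts of members. A match is a description of letters and not of a bound site.

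The bases upstream of Mtmr2 (chr9:13748929-13749178, plus strand) are shown because Mtmr2 had the smallest p-value of the members, with the Nrf1 palindrome in capitals at -65 to -58 from the start.
Mtmr2: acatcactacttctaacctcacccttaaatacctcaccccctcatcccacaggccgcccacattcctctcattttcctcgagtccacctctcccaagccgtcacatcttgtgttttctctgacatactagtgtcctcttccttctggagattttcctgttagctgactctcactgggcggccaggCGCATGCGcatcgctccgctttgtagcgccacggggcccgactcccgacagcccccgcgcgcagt

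Gars (chr6:55037751-55038000, plus strand) and Aars (chr8:111033592-111033841, plus strand) are shown as the synthetase genes that hold the C/EBP-ATF letters, in capitals, at -30 to -23 and at -112 to -105. In the authors' coordinates Aars begins at base 111033144. The printed Aars bases thus precede a RefSeq start but fall inside that span, after its first base.
Gars: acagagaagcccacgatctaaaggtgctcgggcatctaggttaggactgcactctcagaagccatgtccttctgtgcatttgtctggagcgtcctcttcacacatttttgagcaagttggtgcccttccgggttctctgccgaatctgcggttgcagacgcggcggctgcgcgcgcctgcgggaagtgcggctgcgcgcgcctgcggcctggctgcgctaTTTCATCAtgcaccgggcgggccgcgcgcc
Aars: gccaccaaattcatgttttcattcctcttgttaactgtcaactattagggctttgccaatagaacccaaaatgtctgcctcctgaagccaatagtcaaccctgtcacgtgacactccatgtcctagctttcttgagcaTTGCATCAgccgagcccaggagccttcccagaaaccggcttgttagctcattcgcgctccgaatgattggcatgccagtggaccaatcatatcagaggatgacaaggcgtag

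Hspb1 (chr5:135887669-135887918, plus strand), Vcp (chr4:43000508-43000757, minus strand) and Cct5 (chr15:31601847-31602096, minus strand) are shown as chaperone genes with heat shock element letters in capitals. Hspb1 held a pair of them, at -117 to -110 and at -97 to -90, Vcp held them at -60 to -53 and Cct5 at -34 to -27.
Hspb1: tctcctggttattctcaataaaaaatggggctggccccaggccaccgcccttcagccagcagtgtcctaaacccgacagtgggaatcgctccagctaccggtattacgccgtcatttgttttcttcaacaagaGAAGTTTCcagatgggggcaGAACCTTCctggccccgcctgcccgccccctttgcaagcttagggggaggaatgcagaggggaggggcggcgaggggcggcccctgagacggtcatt
Vcp: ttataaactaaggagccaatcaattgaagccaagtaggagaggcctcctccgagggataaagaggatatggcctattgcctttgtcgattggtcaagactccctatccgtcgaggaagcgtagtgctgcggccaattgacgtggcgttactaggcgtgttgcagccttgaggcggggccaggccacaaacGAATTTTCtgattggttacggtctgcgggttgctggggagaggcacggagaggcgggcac
Cct5: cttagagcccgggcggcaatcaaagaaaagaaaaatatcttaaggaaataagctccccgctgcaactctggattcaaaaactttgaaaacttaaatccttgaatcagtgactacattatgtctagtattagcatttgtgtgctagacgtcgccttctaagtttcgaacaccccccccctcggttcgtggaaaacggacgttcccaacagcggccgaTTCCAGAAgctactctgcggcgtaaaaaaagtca

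The neuropathy genes were, as a list, well expressed in the sciatic nerve. Their mean level over the 6 libraries ran from 0.535 FPKM for Ighmbp2, a helicase, to 811 FPKM for Ndrg1, a Schwann cell protein of endosomal traffic. The median was 20.0 FPKM, and the median member was expressed above 81.3% of the genes tested. Means above 10 FPKM were found for 31 members, means of 1 to 10 FPKM for 14, and a mean under 1 FPKM for Ighmbp2.

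**Figure D1:**
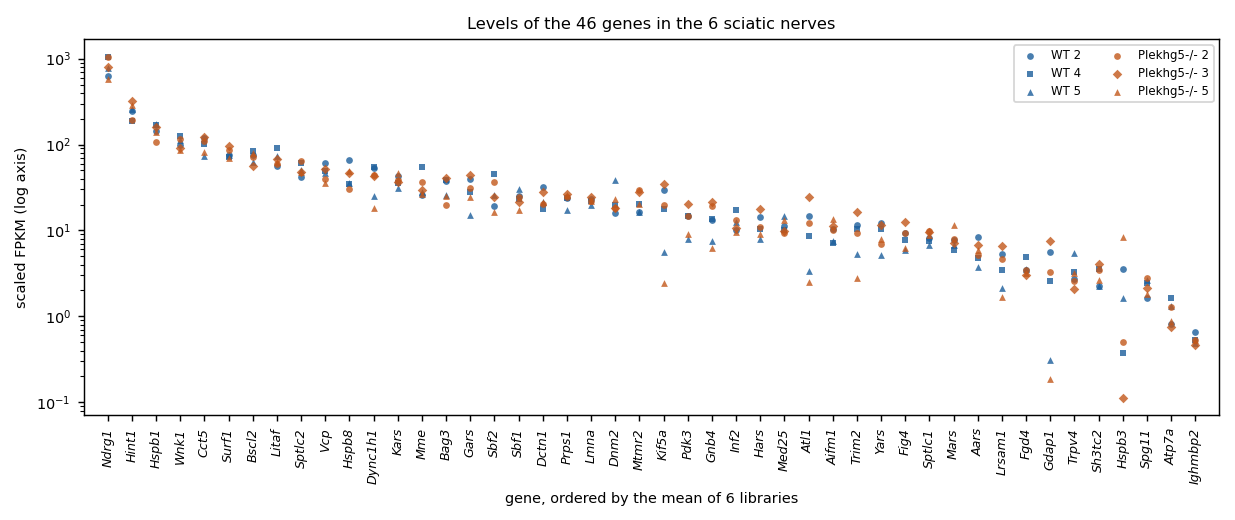
Levels of the 46 neuropathy genes, ordered by mean level, with scaled FPKM on a log axis and 1 symbol per library (blue: wild-type nerves 2, 4 and 5; orange: Plekhg5-deficient nerves 2, 3 and 5). Levels span Ndrg1 at 582 to 1059 FPKM down to Ighmbp2 at 0.459 to 0.665 FPKM, and the symbols of both genotypes are intermixed for most genes, with the widest scatter for Hspb3, Gdap1, Kif5a and Atl1.

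The 6 members with the highest means serve different compartments. Ndrg1 was measured at 620, 1059 and 779 FPKM in the wild type and at 1038, 790 and 582 FPKM in the mutants. Hint1, a nucleotide hydrolase, was measured at 248, 190 and 259 FPKM in the wild type and at 194, 323 and 292 FPKM in the mutants. Hspb1, a small heat shock protein, was measured at 146, 168 and 173 FPKM in the wild type and at 108, 160 and 141 FPKM in the mutants. For these genes, values of each genotype fell inside the range of the other. Wnk1, a kinase that controls ion transport, had 97.8, 126 and 112 FPKM in the wild type against 115, 92.3 and 87.5 FPKM. Cct5, a subunit of the cytosolic chaperonin, had 119, 102 and 74.1 FPKM against 111, 121 and 82.3 FPKM. Surf1, an assembly factor of mitochondrial cytochrome c oxidase, had 76.1, 70.9 and 74.6 FPKM against 87.1, 95.4 and 69.3 FPKM. The genotypes overlapped in each of these as well, and for Surf1 Plekhg5-deficient nerve 5 lay below all 3 wild-type nerves while nerves 2 and 3 lay above them. The log2 fold changes were -0.03 (SE 0.33) for Ndrg1, 0.20 (SE 0.27) for Hint1, -0.27 (SE 0.21) for Hspb1, -0.19 (SE 0.19) for Wnk1, 0.10 (SE 0.25) for Cct5 and 0.17 (SE 0.18) for Surf1. Ndrg1 overlaps the annotated gene Gm17035 (327 FPKM), and the strand setting of the counting is not stated, so reads of these genes cannot be told apart. The sign for Ndrg1 turned positive without both libraries numbered 5 (0.15).

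To ask whether mice without Plekhg5 express other genes of the same disease group at different levels, the genotypes were compared gene by gene. None of the 46 passed an adjusted p under 0.05 in limma, a call that 0.0376% of all genes tested received. Their adjusted p-values were all at least 0.969. At an unadjusted p under 0.05, 1 member was higher in Plekhg5-deficient nerves (Mtmr2) and 0 were lower, where 5.11% of all genes passed that mark (2.41% higher and 2.69% lower). The log2 fold changes ran from -0.38 for Trpv4 to 0.52 for Mtmr2, with 22 above 0 (47.8%, against 51.1% of all genes tested) and 24 below 0, and their median was -0.0034 against 0.0065 over all genes tested. Every library of one genotype lay above every library of the other for 3 members, all of them higher in Plekhg5-deficient nerves (Mtmr2, Sptlc1 and Prps1). That is 6.52% of the members, where 11.6% of all genes tested had no overlap (5.69% higher and 5.88% lower in Plekhg5-deficient nerves). With 3 animals against 3 the smallest p of an exact two-sided permutation test is 0.1.

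The size of difference that these nerves leave room for varied from gene to gene. The 95% interval of the log2 fold change lay within -1 to 1 for 32 members (69.6%, against 74.5% of all genes tested). For the other 14 a difference of 1 log2 unit in at least 1 direction lay inside the interval, and for Hspb3, Kif5a, Gdap1 and Atl1 the interval was wider than 3 log2 units. The median SE was 0.25 for the members and 0.22 for all genes.

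**Figure D2:**
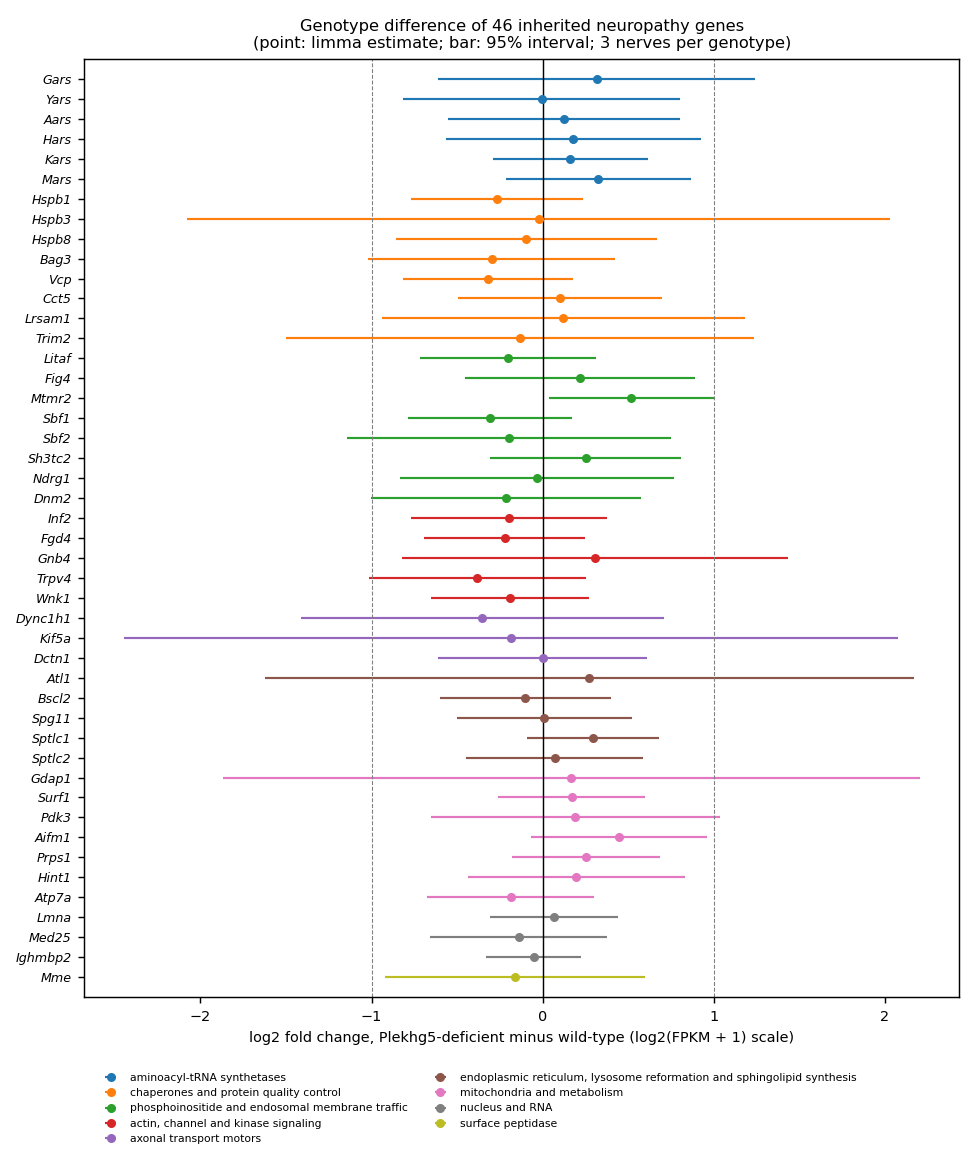
Log2 fold change of each of the 46 genes (Plekhg5-deficient minus wild-type, log2(FPKM + 1) scale; point: limma estimate; bar: 95% interval; n = 3 nerves per genotype), coloured by role. The interval of Mtmr2, which starts at 0.04, is the sole one that does not include 0, and the widest bars belong to Kif5a, Hspb3, Gdap1 and Atl1.

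Mtmr2 encodes a myotubularin-related phosphatase that removes phosphate from phosphoinositides on endosomes, and its loss in Schwann cells is known for folded myelin. Mtmr2 lies on chromosome 9 (13748410 to 13806481, GRCm38), and the RefSeq start used for the printed bases falls inside this span, after its first base. It was measured at 16.2, 20.2 and 16.5 FPKM in the wild type and at 29.4, 27.9 and 20.3 FPKM in the mutants. The groups touched without overlap, since Plekhg5-deficient nerve 5 and wild-type nerve 4 differed by less than the width of their Cufflinks intervals (18.7 to 22.0 and 18.6 to 21.7 FPKM). The mean was 1.47-fold higher in Plekhg5-deficient nerves (25.9 ± 4.88 against 17.6 ± 2.22 FPKM, SD, n = 3 each), with a log2 fold change of 0.52 (SE 0.20, unadjusted p = 0.0383, adjusted p = 0.969 from limma). The estimate was 0.62 without both libraries numbered 5, where 16.2 and 20.2 stood against 29.4 and 27.9 FPKM, and within the pair numbered 5 the values were 16.5 and 20.3 FPKM. Of 18 other settings, 12 kept its unadjusted p under 0.05 and none brought its adjusted p below 0.256.

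Sptlc1 encodes a subunit of serine palmitoyltransferase, the enzyme that begins sphingolipid synthesis. It was measured at 8.15, 7.56 and 6.85 FPKM in the wild type and at 9.81, 9.55 and 8.95 FPKM in the mutants. All 3 Plekhg5-deficient nerves lay above the wild-type nerves and the spread within each genotype was small (7.52 ± 0.652 and 9.44 ± 0.438 FPKM, SD, n = 3), but the log2 fold change of 0.29 (SE 0.16) had an adjusted p of 0.974 from limma. Its partner subunit Sptlc2 was measured at 41.9, 61.1 and 50.2 FPKM in the wild type and at 65.0, 48.3 and 47.3 FPKM in the mutants, with overlap. Prps1, an X-linked enzyme that makes the ribose phosphate of nucleotides, was measured at 23.6, 23.5 and 17.2 FPKM in the wild type and at 24.4, 26.6 and 25.6 FPKM in the mutants. Wild-type nerve 5 stood below the rest while the other wild-type nerves came close to Plekhg5-deficient nerve 2, and the log2 fold change was 0.25 (SE 0.18, adjusted p = 0.974 from limma). Aifm1, an X-linked flavoprotein of the mitochondrial intermembrane space, had the second smallest p-value of the members. It was measured at 10.5, 7.08 and 7.48 FPKM in the wild type and at 10.1, 11.2 and 13.8 FPKM in the mutants, where wild-type nerve 2 and Plekhg5-deficient nerve 2 crossed (log2 fold change 0.45, SE 0.21, adjusted p = 0.974 from limma).

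**Figure D3:**
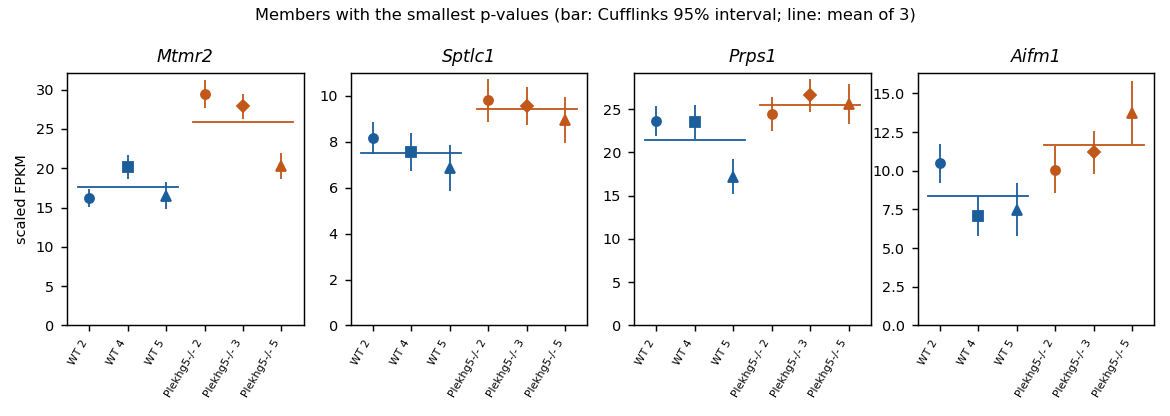
Scaled FPKM (axes start at 0) of Mtmr2, Sptlc1, Prps1 and Aifm1 in each nerve, with wild-type in blue, Plekhg5-deficient in orange, the 95% interval of Cufflinks as a bar and the mean of 3 nerves as a horizontal line. The title's smallest p-values hold for Mtmr2, Aifm1 and Sptlc1. Prps1 is shown for its lack of overlap (unadjusted p = 0.206 from limma). Vcp, Sbf1 and Trpv4, lower in the mutants, and Mars, higher, had smaller unadjusted p-values (0.169 to 0.196 from limma) and are not drawn. Mtmr2, Sptlc1 and Prps1 show no overlap between genotypes, with Plekhg5-deficient nerve 5 at 20.3 FPKM of Mtmr2 almost level with wild-type nerve 4 at 20.2, while Aifm1 overlaps at 10.5 and 10.1 FPKM.

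Around Mtmr2, the other members of phosphoinositide and endosomal traffic differed in direction. Of the 8 genes in this group, Mtmr2 included, 3 had a log2 fold change above 0 and 5 below 0, and the 7 others had overlapping genotypes. Sbf1 and Sbf2, the catalytically inactive relatives that bind Mtmr2, had means of 26.3 ± 3.93 and 30.3 ± 13.7 FPKM in the wild type and of 21.1 ± 3.71 and 25.9 ± 10.1 FPKM in the mutants (SD, n = 3). Sbf2 was highest in wild-type nerve 4 (45.5 FPKM) and lowest in Plekhg5-deficient nerve 5 (16.6 FPKM). Fig4, a phosphatase of the complex that makes and turns over phosphatidylinositol 3,5-bisphosphate, had 7.72 ± 1.76 and 9.32 ± 3.04 FPKM. Litaf, also known as SIMPLE, which helps to sort endosomal cargo to lysosomes, had 56.1, 91.7 and 74.5 FPKM in the wild type against 59.8, 67.6 and 62.0 FPKM in the mutants. The wild-type values of Litaf bracket all 3 Plekhg5-deficient values. Sh3tc2, a Schwann cell protein of recycling endosomes, had 2.72 ± 0.764 and 3.41 ± 0.721 FPKM. Dnm2, the GTPase that cuts off endocytic vesicles, had 15.9, 19.5 and 38.4 FPKM in the wild type and 18.1, 18.1 and 23.0 FPKM in the mutants, and both libraries numbered 5 held its highest values. Of 13 further phosphoinositide genes, 0 passed an adjusted or unadjusted p under 0.05 in limma and 9 had a log2 fold change above 0. Among them Mcoln1, the lysosomal calcium channel that phosphatidylinositol 3,5-bisphosphate opens, had no overlap between genotypes (23.5 ± 0.961 in wild-type and 28.0 ± 3.24 FPKM in the mutants, SD, n = 3). Higher values in the mutants with no overlap were found for 5.69% of all genes tested.

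The aminoacyl-tRNA synthetases that are mutated in neuropathy had mean levels between 5.78 FPKM (Aars) and 38.8 FPKM (Kars). Of the 6, 5 had a log2 fold change above 0, with Yars at -0.0060, and none passed the test or separated the genotypes. Kars, which charges lysine tRNA, was measured at 42.9, 36.1 and 31.0 FPKM in the wild type and at 38.9, 37.0 and 47.0 FPKM in the mutants, with a log2 fold change of 0.16 (SE 0.19) that turned to -0.07 without both libraries numbered 5. Gars, the glycine enzyme, was measured at 40.01, 28.2 and 14.9 FPKM in the wild type and at 31.2, 44.0 and 24.4 FPKM in the mutants. Within each genotype Gars was lowest in the nerve numbered 5, and Hars, the histidine enzyme, had both of those nerves at the bottom as well (7.97 and 8.98 FPKM, against 10.4 to 17.9 FPKM). Aars, which like Gars holds the C/EBP-ATF letters printed above, was measured at 8.35, 4.73 and 3.79 FPKM in the wild type and at 5.22, 6.74 and 5.88 FPKM in the mutants, with overlap. Mars, the methionine enzyme, had 6.81 ± 0.936 and 8.92 ± 2.38 FPKM, and its locus overlaps that of Ddit3 (34.2 FPKM), which leaves its level uncertain. Of 17 other synthetases and their scaffold proteins, 0 passed the adjusted test. Lars and Qars, the leucine and glutamine enzymes, were higher in Plekhg5-deficient nerves at an unadjusted p under 0.05 in limma, as 2.41% of all genes tested were. Lars had 5.54 ± 0.772 in wild-type and 8.49 ± 1.31 FPKM in the mutants, and Qars had 27.6 ± 4.83 and 42.4 ± 11.2 FPKM (SD, n = 3). Neither genotype overlapped the other for Lars or Qars, and their adjusted p-values were both at least 0.947 in limma. Of all genes tested, 5.69% were higher in Plekhg5-deficient nerves with no overlap.

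Among the chaperones and protein quality control genes, 6 of 8 had a log2 fold change below 0 and 2 above 0, with none past the test and every pair of groups overlapping. Vcp, an ATPase that pulls ubiquitinated proteins out of complexes, was measured at 61.7, 49.6 and 47.2 FPKM in the wild type and at 40.1, 51.8 and 35.2 FPKM in the mutants. Bag3, a co-chaperone that works with Hspb8 in selective autophagy, was measured at 37.6, 38.5 and 26.1 FPKM in the wild type and at 19.7, 40.6 and 24.9 FPKM in the mutants. Plekhg5-deficient nerve 3 thus held the highest Bag3 value, while nerves 2 and 5 held the lowest. Hspb8 was highest in wild-type nerve 2 (67.0 FPKM) and lay between 30.2 and 48.9 FPKM in the rest. The genes with heat shock element letters had log2 fold changes of -0.27 (SE 0.21) for Hspb1, -0.32 (SE 0.21) for Vcp, -0.02 (SE 0.86) for Hspb3, 0.10 (SE 0.25) for Cct5 and -0.22 (SE 0.20) for Fgd4, none past the test. The sign turned for Cct5 without wild-type nerve 5 or Plekhg5-deficient nerve 3, and for Hspb3 without wild-type nerve 2, Plekhg5-deficient nerve 2 or Plekhg5-deficient nerve 3, and Hspb3 was at -1.01 without Plekhg5-deficient nerve 5. Of 14 further small heat shock proteins and partners, 10 had a log2 fold change below 0 and none passed an adjusted or unadjusted p under 0.05. The near-identical genes Hspa1a and Hspa1b, whose reads cannot be told apart with confidence, were both highest in wild-type nerve 4 (17.6 and 18.0 FPKM) and lay between 1.39 and 5.85 FPKM in the other libraries. The 7 other subunits of the chaperonin that contains Cct5 had log2 fold changes from -0.03 to 0.22.

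The next group holds genes of actin, channel and kinase signaling. Fgd4 and Plekhg5 both encode guanine nucleotide exchange factors, and Fgd4 was measured at 3.42, 4.93 and 3.57 FPKM in the wild type and at 3.50, 3.02 and 3.17 FPKM in the mutants. Plekhg5-deficient nerve 2 lay inside the wild-type range and the other 2 just below it. Inf2, a formin that assembles actin, had 13.2 ± 3.69 and 11.2 ± 1.82 FPKM. Trpv4, a calcium channel, was measured at 2.72, 3.27 and 5.42 FPKM in the wild type and at 2.59, 2.07 and 3.17 FPKM in the mutants, with the highest value in wild-type nerve 5. Gnb4, a G protein subunit, was measured at 13.3, 13.5 and 7.58 FPKM in the wild type and at 19.3, 21.6 and 6.26 FPKM in the mutants. Both nerves numbered 5 held the lowest Gnb4 levels, and without them its log2 fold change was 0.56 (SE 0.18, unadjusted p = 0.0252, adjusted p = 0.758 from limma), against 0.30 (SE 0.47) over all 6. Of the Plekhg family relatives and Arhgef10, another exchange factor linked to nerve conduction, 5 of 6 were tested and none passed an adjusted or unadjusted p under 0.05. Arhgef10 was the most abundant of them, with a mean of 57.9 FPKM.

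The remaining members likewise kept overlapping genotypes. Bscl2, a protein of the endoplasmic reticulum that helps to form lipid droplets, was measured at 76.4, 83.1 and 62.3 FPKM in the wild type and at 71.3, 55.7 and 80.5 FPKM in the mutants (log2 fold change -0.10, SE 0.21). Its locus overlaps Gng3 (97.1 FPKM). Spg11, needed to reform lysosomes after autophagy, had 2.24 ± 0.513 and 2.25 ± 0.477 FPKM. Lmna, which encodes the A-type nuclear lamins, varied least of all members, by 1.26-fold, with 23.5, 22.0 and 19.7 FPKM in the wild type and 21.8, 24.8 and 21.8 FPKM in the mutants (log2 fold change 0.07, SE 0.16). Med25, a subunit of the Mediator complex, had 12.1 ± 2.53 and 10.8 ± 1.98 FPKM, and Ighmbp2 had 0.564 ± 0.0891 and 0.506 ± 0.0403 FPKM. Atp7a, an X-linked copper pump, had 1.26 ± 0.418 and 0.971 ± 0.272 FPKM, and Pdk3, an X-linked kinase of the pyruvate dehydrogenase complex, had 12.6 ± 3.94 and 14.7 ± 5.68 FPKM. Mme, a peptidase of the cell surface, was measured at 25.6, 55.5 and 28.1 FPKM in the wild type and at 36.5, 29.3 and 26.4 FPKM in the mutants. The highest Mme value was in wild-type nerve 4, without which its log2 fold change of -0.16 (SE 0.32) became 0.18. Of 11 sphingolipid synthesis genes tested beside Sptlc1 and Sptlc2, none passed an adjusted or unadjusted p under 0.05.

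The members differed far more between individual nerves than between genotypes in a set of genes known for neuronal expression. Kif5a, the neuronal heavy chain of conventional kinesin, was measured at 29.2, 17.9 and 5.68 FPKM in the wild type and at 19.9, 34.7 and 2.48 FPKM in the mutants. Atl1, an atlastin that fuses tubules of the endoplasmic reticulum, was measured at 14.8, 8.72 and 3.33 FPKM in the wild type and at 12.1, 24.6 and 2.502 FPKM in the mutants. Gdap1, a protein of the outer mitochondrial membrane, was measured at 5.58, 2.56 and 0.310 FPKM in the wild type and at 3.30, 7.53 and 0.184 FPKM in the mutants. In these 3 genes the highest nerve was Plekhg5-deficient nerve 3 and the lowest was Plekhg5-deficient nerve 5, with wild-type nerve 5 next to it. Trim2, a ubiquitin ligase that acts on neurofilament light chain, was measured at 11.4, 10.4 and 5.38 FPKM in the wild type and at 9.34, 16.5 and 2.82 FPKM in the mutants. The highest value exceeded the lowest 14.03-fold for Kif5a, 9.82-fold for Atl1, 40.9-fold for Gdap1 and 5.84-fold for Trim2, where the median was 1.88-fold for the members and 2.17-fold for the 18684 tested genes with no value at 0.

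Of the markers of neuronal cell bodies, Snap25 and Isl1, shown after their values were seen, varied between libraries in a similar way. Rbfox3 ranked the libraries as Snap25 did. Others of the list differed in part. Syt1 was highest in wild-type nerve 2 (29.5 FPKM), above Plekhg5-deficient nerve 3 (23.1 FPKM). Slc17a7 was higher in wild-type nerve 5 (7.72 FPKM) than in Plekhg5-deficient nerve 2 (4.86 FPKM). Snap25, a protein of synaptic vesicle release, was measured at 121, 59.5 and 10.3 FPKM in the wild type and at 55.0, 219 and 4.39 FPKM in the mutants. Isl1, a transcription factor of motor and sensory neurons, was measured at 13.1, 4.66 and 0.467 FPKM in the wild type and at 4.77, 14.4 and 0.347 FPKM in the mutants. Kif5a, Atl1, Gdap1 and Lrsam1 ranked the 6 libraries as Isl1 did, an order found in 2.21% of all genes tested. Trim2 alone ranked them as Snap25 did, the marker of highest mean, an order found in 1.69%. Isl1 was taken after its values were seen and had the lowest mean of the detected neuronal markers (6.30 FPKM). The matches thus depend on the marker chosen, and no conclusion is drawn from their number. Of the 6 neuronal markers, Chat was listed at 0 in every library, and the sum of the list ran from 24.5 to 196 FPKM in wild-type and from 7.61 to 301 FPKM in the mutants. The part of neuronal RNA in the levels of these members was not tested. Over all 6 libraries the log2 fold changes were -0.18 (SE 0.95) for Kif5a, 0.27 (SE 0.79) for Atl1, 0.17 (SE 0.85) for Gdap1 and -0.13 (SE 0.57) for Trim2. Without both libraries numbered 5, where the sign turned for Kif5a and Trim2, they were 0.18 (SE 0.35) for Kif5a, 0.55 (SE 0.40) for Atl1, 0.32 (SE 0.45) for Gdap1 and 0.16 (SE 0.29) for Trim2, none at an unadjusted p under 0.05.

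Both nerves numbered 5 lay below the other 4 for 12 of the 46 members (26.1%, against 17.0% of all genes tested). They lay above the other 4 for 2 members (Dnm2 and Med25, 15.3% of all genes tested). The 12 were Gars, Hars, Cct5, Lrsam1, Trim2, Fig4, Gnb4, Dync1h1, Kif5a, Atl1, Gdap1 and Pdk3. Dync1h1, the heavy chain of cytoplasmic dynein, was measured at 52.7, 54.8 and 25.1 FPKM in the wild type and at 44.4, 42.5 and 18.1 FPKM in the mutants (log2 fold change -0.35, SE 0.44). Dctn1, the large subunit of its activator dynactin, was not among them, with 32.2, 17.9 and 21.5 FPKM in the wild type and 20.4, 28.1 and 21.7 FPKM in the mutants. Of 28 other dynein, dynactin and kinesin genes, 19 lay lowest in both nerves numbered 5, as did 5 of the 7 other chaperonin subunits. The intermediate chain Dync1i1 showed the widest range of these, with 17.9, 7.05 and 0.724 FPKM in the wild type and 9.53, 27.3 and 0.606 FPKM in the mutants. None of the 28 passed an adjusted or unadjusted p under 0.05 for genotype.

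**Figure D4:**
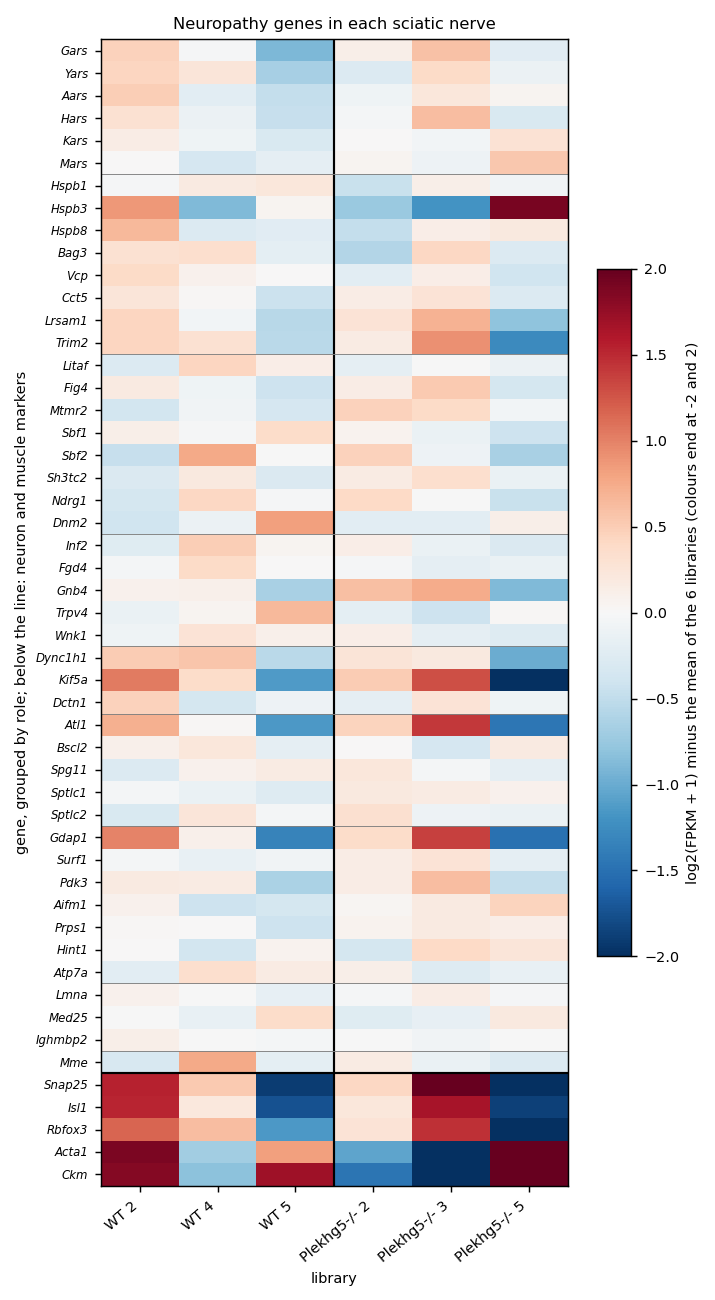
Each neuropathy gene in each nerve as log2(FPKM + 1) minus its mean over the 6 libraries (red: above the mean; blue: below; colours end at -2 and 2), grouped by role, with 3 neuron and 2 muscle markers below the line. Kif5a, Atl1, Gdap1 and Trim2 are blue in both nerves numbered 5 and red in Plekhg5-deficient nerve 3, as the 3 neuron markers shown are. Hspb3 is red in wild-type nerve 2 and Plekhg5-deficient nerve 5, as the 2 muscle markers shown (Acta1 and Ckm) are. Acta1 and Ckm are also above their means in wild-type nerve 5 (2142 and 1368 FPKM), where Hspb3 (1.63 FPKM) is close to its mean.

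Hspb3, a small heat shock protein known from skeletal and heart muscle, had a different pattern and the widest range of the members, 76.4-fold. It was measured at 3.60, 0.372 and 1.63 FPKM in the wild type and at 0.506, 0.111 and 8.47 FPKM in the mutants. Its highest nerve, Plekhg5-deficient nerve 5, was at least 2-fold above every other library, which held for no other member. Acta1, the actin of skeletal muscle fibres, was measured at 4470, 753 and 2142 FPKM in the wild type and at 582, 65.3 and 11585 FPKM in the mutants. Hspb3 and Acta1 ranked the libraries alike except for the order of wild-type nerve 4 and Plekhg5-deficient nerve 2, whose Cufflinks intervals for Hspb3 overlap. All 12 skeletal muscle markers were detected, but not all ranked the libraries in this way. Myh7 was lowest in wild-type nerve 2 (0.0182 FPKM), and Sln was low there (0.834 FPKM) and lowest in wild-type nerve 4 (0.113 FPKM). Ckm, drawn beside Acta1 in the figures, had a lower mean (1235 FPKM) than Tnnt3 (2784 FPKM) and Mylpf (2465 FPKM). The part of muscle RNA in the Hspb3 level was not tested. The log2 fold change of Hspb3 was -0.02 (SE 0.86), and -0.99 (SE 0.59) without both libraries numbered 5. The related genes Hspb6 and Hspb7 were highest in Plekhg5-deficient nerve 5 too (347 and 82.3 FPKM, against at most 131 and 51.5 FPKM elsewhere).

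**Figure D5:**
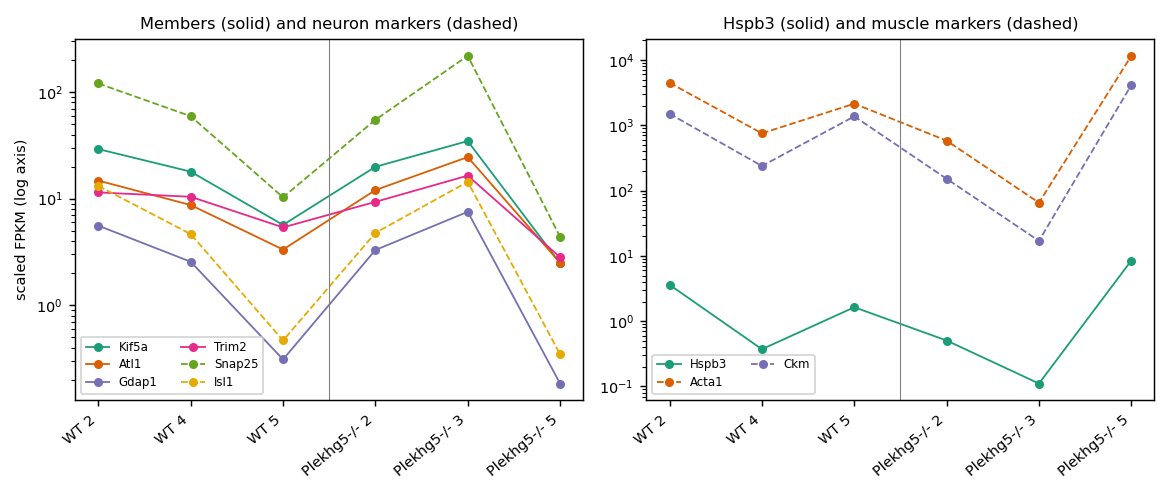
Scaled FPKM on a log axis in each of 6 nerves (lines join the libraries for reading only). Left, Kif5a, Atl1, Gdap1 and Trim2 (solid) with the neuron markers Snap25 and Isl1 (dashed), all lowest in Plekhg5-deficient nerve 5 and highest in Plekhg5-deficient nerve 3. Right, Hspb3 (solid) with the muscle markers Acta1 and Ckm (dashed), all highest in Plekhg5-deficient nerve 5 and lowest in Plekhg5-deficient nerve 3.

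Apart from Qars and Mcoln1, the 2 most abundant genes of each pathway beside the members had overlapping genotypes. Of the chaperone partners, Cryab, a small heat shock protein, had 1819 ± 515 and 1308 ± 187 FPKM in wild-type and mutant nerves (SD, n = 3), and Hspa8, the constitutive chaperone of its class, had 747 ± 296 and 596 ± 210 FPKM. The dynein light chains Dynll1 and Dynlrb1 had 678 ± 214 and 576 ± 105 FPKM and 469 ± 35.4 and 550 ± 141 FPKM. In sphingolipid synthesis, the ceramide synthase Cers2 had 197 ± 66.5 and 181 ± 36.0 FPKM and the desaturase Degs1 had 155 ± 47.0 and 164 ± 44.4 FPKM. The chaperonin subunits Cct4 and Tcp1 had 84.2 ± 7.03 and 82.9 ± 11.1 FPKM and 57.8 ± 2.62 and 58.5 ± 9.44 FPKM. Aimp2, a scaffold of the synthetase complex, had 39.7 ± 7.06 and 39.9 ± 20.1 FPKM, and the myotubularin relative Mtmr6 had 15.0 ± 2.99 and 17.4 ± 8.79 FPKM. Of the exchange factors, Plekhg2 had 17.0 ± 5.57 and 14.4 ± 3.46 FPKM and Arhgef10 had 48.3 ± 12.5 and 67.5 ± 25.5 FPKM.

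Neighbouring or overlapping genes limit a few further levels. Of the 46 members, 14 overlap a gene of at least 0.1 FPKM in the authors' coordinates. Lrsam1, a ubiquitin ligase of the endosome with a mean of 3.97 FPKM, overlaps Rpl12 (103 FPKM) and Fam129b (31.7 FPKM), Ighmbp2 overlaps Mrpl21 (18.1 FPKM), and Surf1 overlaps Surf2 (25.3 FPKM).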

How the data were processed

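RNA of whole sciatic nerves from 3 mice per genotype was made into poly(A) libraries. The authors trimmed reads with Trim Galore 0.4.0, mapped them to GRCm38 with STAR and deposited 1 table of FPKM per library, estimated with Cufflinks 2.2.1. The annotation release, strand setting and read depth were not given in the sources used here. Each library's FPKM were scaled by a median-of-ratios factor. The level required for testing was 0.1 FPKM on average in 1 genotype or more. Log2(FPKM + 1) was fitted in limma 3.58.1 (R 4.3.3) on genotype alone, allowing a variance trend, with Benjamini-Hochberg adjustment over all genes tested, and an adjusted p under 0.05 made a call. Nothing says that same-numbered animals were paired, so no block was used. Deviations of same-numbered libraries from their group means correlated at 0.073 (number 2) and 0.58 (number 5). Libraries of unlike number correlated at -0.52 to 0.46 across genotypes, so the value for number 5 was the highest. Members and lists were chosen with earlier results of these data known. By rule, values in every library were given for members with no overlap, at an unadjusted p under 0.05, of highest level overall or in their role, or with 1 library at least 2-fold above the rest. Of each pathway list, genes at an unadjusted p under 0.05 and the 2 of highest level were named. Sums were given for the Schwann cell, lymphocyte, erythroid, skeletal muscle and neuronal marker lists. The macrophage, adipocyte, fibroblast, endothelium and oligodendrocyte lists are not shown. Other members, pathway genes and markers were shown per library after their values were seen. The fit was tested on simulated data with noise drawn independently for each gene and library. Differences that many genes of a library share, as in the nerves numbered 5, were not simulated, so that test does not cover them. Alternatives are listed in the closing section. Fold changes and p-values made by the authors were not used.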

Additional observations from a re-analysis of the deposited data

How the results depend on the processing

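None of the 46 genes was called in any of 18 alternatives (lowest adjusted p 0.256), and 18 of the 46 kept their sign in all of them. Plekhg5 kept its direction in all 18, but its adjusted p from limma exceeded 0.05 with no filter on low values (-2.26, adjusted p 0.335), without both libraries numbered 5 (-2.19, adjusted p 0.0790) and with each library left out in turn (-2.33 to -2.14). The 8 genes called over all genes became 0 with no filter, 22 with array weights and 0 to 5 with 1 library left out. The count of neuropathy genes at an unadjusted p under 0.05 was 0 with FPKM as deposited, 2 each with no filter (Mtmr2 and Sptlc1), with array weights (Mtmr2 and Bag3) and without both libraries numbered 5 (Mtmr2 and Gnb4), and 0 to 2 with 1 library left out. It was 0 without wild-type nerve 5, Plekhg5-deficient nerve 2 or Plekhg5-deficient nerve 3. The share of all genes at that mark was taken in the main fit alone (5.11%). These counts therefore cannot be read as more or fewer than among all genes in each setting. The count with no overlap was 10 without both libraries numbered 5 (21.7%, against 36.2% of all genes tested in the same libraries) and 4 to 12 with 1 library left out (8.70% without wild-type nerve 5, against 21.3% of all genes, to 26.1% without wild-type nerve 2, against 21.3%), where fewer libraries make overlap less frequent by construction.

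With a replicate block over the numbers 2 and 5, which are not stated to pair the animals, 2 genes were called and Plekhg5 had -2.27 (adjusted p 0.319 from limma). Of the neuropathy genes, 9 had no overlap among these 4 libraries (19.6%, against 28.4% of all genes), and 13 had the other sign, among them Bscl2 (0.12), Hint1 (-0.10), Hspb3 (0.12), Mme (0.20) and Ndrg1 (0.15). Kif5a replaced Mtmr2 as the gene at an unadjusted p under 0.05.

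Signs also turned with FPKM as deposited for 6 neuropathy genes, Cct5 (-0.066), Kars (-0.0028) and Lmna (-0.094) among them, with array weights for 5, Hint1 (-0.011) and Ndrg1 (0.19) among them, and without both libraries numbered 5 for 7 (Aars, Dnm2, Kif5a, Sbf2, Trim2, Kars at -0.066 and Ndrg1 at 0.15). With 1 library left out, 24 had the other sign at least 1 time. Log2 fold changes ran most widely for Atl1 (-0.37 to 1.07), Kif5a (-0.88 to 0.81), Hspb3 (-1.01 to 0.56), Gdap1 (-0.47 to 0.97) and Trim2 (-0.62 to 0.47), and of the others named by rule from -0.23 to 0.042 for Bscl2, -0.10 to 0.26 for Cct5, -0.72 to 0.052 for Dync1h1, -0.0091 to 0.13 for Lmna, -0.36 to 0.18 for Mme and -0.24 to 0.18 for Ndrg1. The cause of these shifts was not tested. The tables hold no counts, so depth limits could not be computed.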
